A study of Mus musculus with 16 samples.

Results

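The collagen genes of mouse skin were followed in bulk RNA sequencing of dorsal skin with and without ultraviolet B (UVB) exposure. They were taken by symbol, as every gene named Col, a number, a and a number, which gave 44 of the 55359 gene IDs in the files. The 44 genes were sorted into 7 classes by the structure their chains are known to build: 11 fibrillar, 6 type IV network, 4 basement membrane zone, 6 type VI, 9 fibril-associated, 3 short-chain and 5 transmembrane or other genes. Collagens are the triple-helical proteins that give skin its tensile strength. Fibroblasts of the dermis make most of the fibrillar chains of types I, III and V, which assemble into the fibrils of the dermis. Type IV chains form the sheet under the epidermis and around vessels, nerves and muscle fibres, and types VII and XVII anchor the epidermis to that sheet.

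4 kinds of skin were compared, in male mice aged 8 weeks, and all skin carried the label telogen, which is the hair cycle's resting phase. KO UVB and KO control skin came from mice with the genotype Tnfrsf1a/b KO, in which both TNF receptor genes are knocked out, and WT UVB and WT control skin came from wild-type mice. The UVB groups had a treatment labelled 3xUVB and the control groups had no UVB. The sources used here do not give the UVB dose and timing, the strain or the deleted part of each receptor gene. Each group held 4 libraries. The labels do not say whether these are different animals, and the p-values therefore reflect variation among libraries that may be technical in part.

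Depth was 15644375 to 23200649 reads in genes per library. Values per library are in CPM, reads per 1000000 reads in genes, after TMM scaling, a normalisation that evens out library composition. Tnfrsf1a stood at 82.2 to 105 CPM in the 8 KO libraries, against 133 to 162 CPM in the 8 WT libraries. Tnfrsf1b stood at 15.6 to 27.9 CPM in KO libraries, against 33.6 to 69.6 CPM in WT libraries. All 12 dermal fibroblast markers, 7 basal and 6 suprabasal keratinocyte markers of the lists used here were expressed well enough to be tested. The 16 markers of the growing (anagen) hair follicle summed to 13.3 to 26.3 CPM in KO UVB, 88.6 to 321 CPM in KO control, 20.8 to 188 CPM in WT UVB and 1214 to 3087 CPM in WT control libraries, although all carried the telogen label. In the WT UVB group, library 2 held the highest of these sums.

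Of the 44 genes, 40 had enough reads to be tested. Col9a1, Col9a2, Col6a4 and Col10a1, with 0 to 26 reads in any library, were not. Collagen transcripts took up 3.14 to 6.80% of all reads in genes. Their share was 3.78 ± 0.39% in KO UVB skin, 6.01 ± 0.27% in KO control skin, 4.50 ± 0.21% in WT UVB skin and 4.46 ± 1.73% in WT control skin (SD, n = 4 each). In KO skin the share was 3.28 to 4.22% in UVB libraries against 5.77 to 6.30% in control libraries, with no overlap. In WT skin the UVB libraries, at 4.30 to 4.79%, lay inside the control range of 3.14 to 6.80%. Col1a1, Col1a2 and Col3a1, the chains of types I and III, together made up 81.9 to 90.5% of collagen CPM in every library.

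Between genes, levels were compared per length. Per kilobase of exon, averaged over all 16 libraries, Col1a1 stood at 2024 CPM, Col3a1 at 1347.5 CPM and Col1a2 at 1135 CPM. The order among these genes rested on the group and on the length used. Col1a2 averaged 1582 ± 159 CPM per kilobase of exon in KO control and 1107 ± 496 in WT control skin, where Col3a1 averaged 1555 ± 232 and 1040.1 ± 423 (SD, n = 4 each), within 1 SD of each other. Over all libraries, per kilobase of coding sequence Col1a2 led with 3425 CPM, ahead of Col1a1 with 3048 and Col3a1 with 3012 CPM. On either scale a wide step separated them from the rest. Col6a1, a chain of the type VI beaded filaments, came next with 148 CPM per kilobase of exon, then Col17a1, a transmembrane collagen of the hemidesmosome, with 130.0 CPM. Col5a1 stood at 74.3, Col4a1 at 73.6 and Col6a2 at 71.2 CPM per kilobase of exon. The lowest were Col9a1 at 0.0197, Col25a1 at 0.0304, Col6a4 at 0.0385, Col10a1 at 0.0582 and Col2a1 at 0.0630 CPM per kilobase of exon.

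With UVB, more collagen genes were lower than higher in KO skin, and few passed the test in WT skin. A gene is called here at a Benjamini-Hochberg adjusted p under 0.05 in edgeR's quasi-likelihood test fitted over all 17531 genes tested, and changes are log2 fold changes ± standard error, of UVB over control or of KO over WT. In KO UVB against KO control skin, 15 of the 40 genes (37.5%) were called, 2 higher and 13 lower, where 32.3% of all genes were called, 17.2% higher and 15.1% lower. In WT UVB against WT control skin, 4 of the 40 were called, 1 higher and 3 lower, where 18.8% of all genes were called, 10.2% higher and 8.60% lower. The median log2 fold change over the 40 genes was -0.29 in KO skin and -0.08 in WT skin, against -0.02 and -0.03 over all genes. Libraries did not overlap between UVB and control for 11 collagen genes in KO skin, 1 higher and 10 lower, where 25.1% of all genes had no overlap. In WT skin 5 had no overlap, 1 higher and 4 lower, where 28.2% of all genes had none.

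Col2a1, Col27a1, Col4a6 and Col23a1 were called in both genotypes, each in the same direction. The other 11 genes called in KO skin did not pass the test in WT skin. The difference between the genotypes was tested as an interaction, in which the WT change with UVB is subtracted from the KO change. It called 0 of the 40 genes with edgeR, where 0.0228% of all genes were called. At an unadjusted p under 0.05 it held 8 of the 40, where 12.8% of all genes stood there. DESeq2 also called 0, and limma voom with sample quality weights called 5, namely Col12a1, Col1a2, Col4a5, Col4a6 and Col8a2. The 11 genes are therefore not shown to respond to UVB in KO skin alone. Of the 16 anagen hair follicle markers, 15 fell with UVB in KO skin (93.8%, against 32.3% of all genes called) and 16 in WT skin (100%, against 18.8%). The part of these markers in the collagen values was not tested. In bulk skin, fewer cells of a type and less RNA per cell cannot be told apart.

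**Figure D1:**
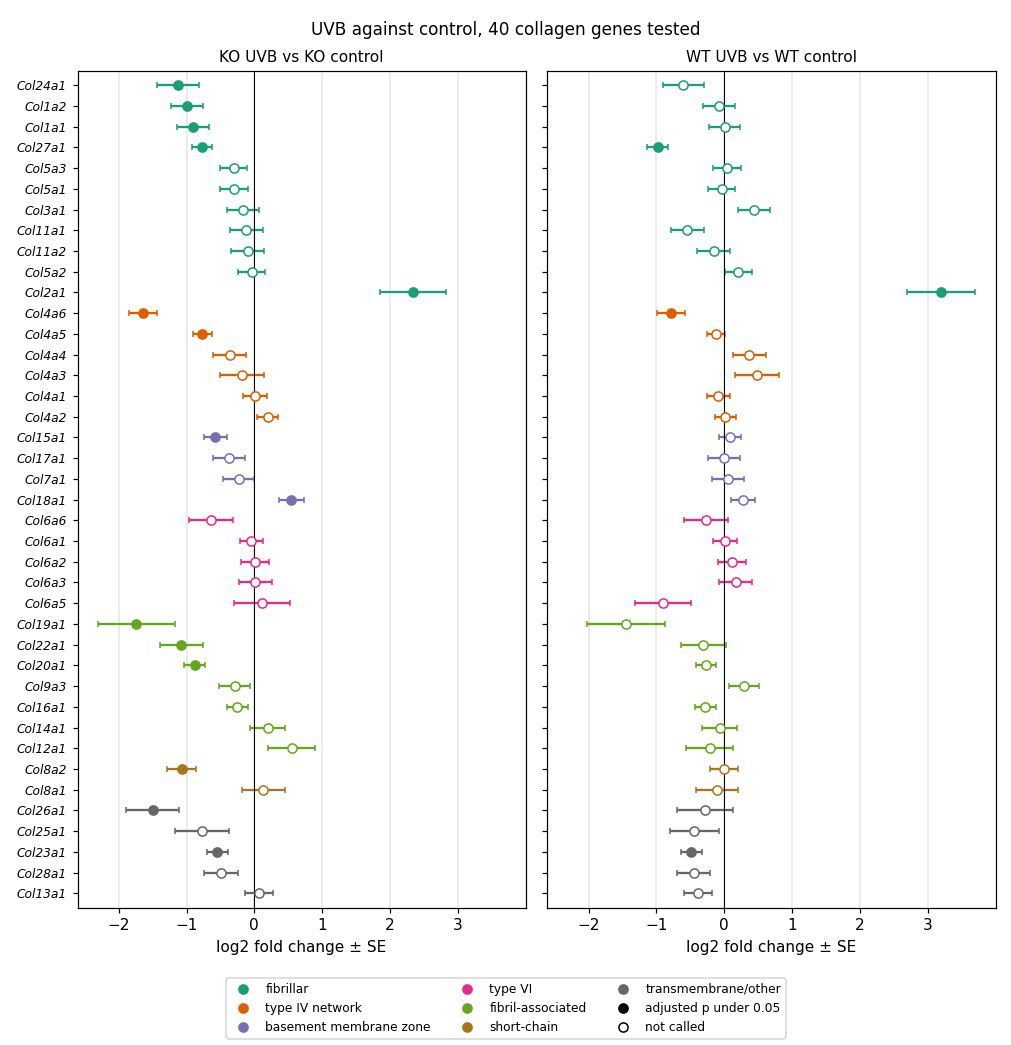
Log2 fold change ± SE (x axis) of the 40 collagen genes tested (y axis, grouped by class in colour) for UVB against control in KO skin (left) and WT skin (right), with filled points at adjusted p under 0.05. In KO skin 13 filled points lie left of 0 and 2 right of it, and in WT skin 3 lie left and 1 right.

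Among the 11 fibrillar genes, type I collagen fell with UVB in KO skin while type III did not pass the test. In KO UVB against KO control skin 5 fibrillar genes were called (45.5%, against 32.3% of all genes), 1 higher and 4 lower, with a class median log2 fold change of -0.30. In WT UVB against WT control skin 2 were called (18.2%, near the 18.8% of all genes), 1 higher and 1 lower, with a median of -0.04.

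Col1a1 (ENSMUSG00000001506.11) encodes the alpha 1 chain of type I collagen, the main protein of dermal fibrils. It had 8793, 10525, 8893 and 10265 CPM in KO UVB libraries 1 to 4, against 14827, 18314, 20159 and 18456 CPM in KO control libraries. In WT skin it had 12672, 12695, 12369 and 13548 CPM in UVB libraries, against 13614, 8241, 20318 and 8892 CPM in control libraries. All KO UVB libraries lay below all KO control libraries, whereas the WT UVB libraries sat close together inside a wide WT control range whose top was library 3. Col1a1 fell in KO UVB against KO control skin (-0.90 ± 0.24, adjusted p = 0.00902). In WT UVB against WT control skin the change was 0.01 ± 0.23 (adjusted p = 0.99), and the interaction was -0.91 ± 0.33 (adjusted p = 0.275).

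Col1a2 (ENSMUSG00000029661.17), which encodes the alpha 2 chain that joins Col1a1 chains in the type I trimer, gave a like picture. It had 8780.3, 10087, 9128 and 11576 CPM in KO UVB, against 17487, 18697, 21994 and 20472 CPM in KO control libraries. WT UVB libraries had 13195, 13791, 12058 and 13293 CPM, against 14159, 8979, 22320.4 and 9553 CPM in WT control libraries. Again the KO groups did not overlap and the WT groups did. Col1a2 fell in KO skin with UVB (-0.99 ± 0.24, adjusted p = 0.00562), and in WT skin the change was -0.07 ± 0.24 (adjusted p = 0.861). The ratio of Col1a1 to Col1a2 CPM was 0.976 ± 0.0662 in KO UVB, 0.911 ± 0.0541 in KO control, 0.981 ± 0.0501 in WT UVB and 0.930 ± 0.0226 in WT control skin (SD, n = 4 each).

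Col3a1 (ENSMUSG00000026043.19), the chain of type III collagen, which is laid down with type I in dermal fibrils and is prominent in young and healing skin, was not called in any contrast. It had 11063, 16299.8, 13286 and 13822 CPM in KO UVB, against 18355, 15352, 12978 and 14359 CPM in KO control libraries. In WT skin it had 13045, 13349, 13812 and 15073 CPM in UVB libraries, against 10288, 7907, 16003 and 6640.4 CPM in control libraries. Groups overlapped in both genotypes. UVB gave -0.16 ± 0.23 in KO skin (adjusted p = 0.62) and 0.44 ± 0.23 in WT skin (adjusted p = 0.203). Without WT control library 3 the change in WT skin was 0.75 with adjusted p = 0.0166, and limma voom with sample quality weights gave adjusted p = 0.0348.

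The balance of type III to type I transcripts separated UVB from control libraries in both genotypes. The ratio of Col3a1 to Col1a1 CPM was 1.41 ± 0.133 in KO UVB against 0.874 ± 0.256 in KO control skin, and 1.08 ± 0.0438 in WT UVB against 0.812 ± 0.0996 in WT control skin (SD, n = 4 each). Single libraries ranged over 1.26 to 1.55 in KO UVB and 0.644 to 1.24 in KO control skin, and over 1.03 to 1.12 in WT UVB and 0.747 to 0.960 in WT control skin. The closest approach was between KO UVB library 1 and KO control library 1, at 1.26 and 1.24. No test was run on this ratio, and a ratio shows unequal change without saying which gene moved.

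**Figure D2:**
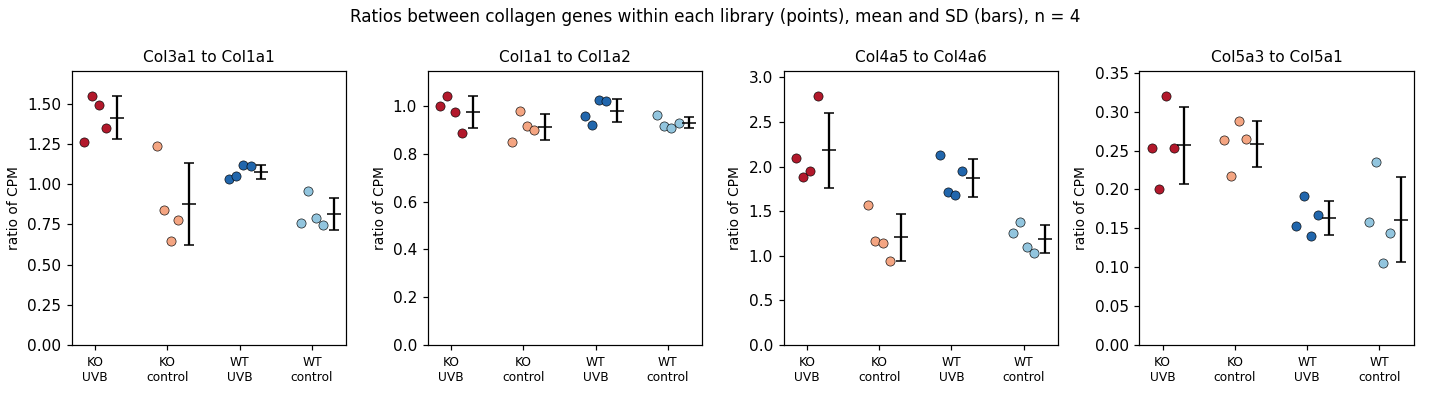
Ratio of CPM between pairs of collagen genes within each library (y axis), by group, with points for libraries and bars for mean and SD (n = 4). For Col3a1 to Col1a1 and Col4a5 to Col4a6 every UVB library lies above every control library of its genotype, for Col1a1 to Col1a2 all groups overlap, and for Col5a3 to Col5a1 the KO means are 0.257 and 0.258 against WT means of 0.163 and 0.161.

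The start regions of Col1a2 and Col3a1 are shown because both chains build dermal fibrils and the balance of type III to type I separated UVB from control libraries. RefSeq windows of 300 bases, 250 before and 50 after the annotated start, were available for 35 of the 44 genes as 38 windows on GRCm38.p6. No window for Col1a1 was among them. Capitals mark matches, on either strand, to 3 short motifs, the CCAAT box (CCAAT), the TATA box (TATAAA) and the GC box (GGGCGG). The Col1a2 window (chr6:4505368-4505667, plus strand) and the Col3a1 window (chr1:45311288-45311587, plus strand) read as follows.
Col1a2: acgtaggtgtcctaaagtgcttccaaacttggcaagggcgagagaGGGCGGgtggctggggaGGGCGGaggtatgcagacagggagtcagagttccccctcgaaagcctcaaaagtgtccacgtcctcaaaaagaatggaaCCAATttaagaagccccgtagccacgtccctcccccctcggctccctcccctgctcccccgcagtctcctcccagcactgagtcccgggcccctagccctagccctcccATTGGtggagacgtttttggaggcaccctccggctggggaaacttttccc
Col3a1: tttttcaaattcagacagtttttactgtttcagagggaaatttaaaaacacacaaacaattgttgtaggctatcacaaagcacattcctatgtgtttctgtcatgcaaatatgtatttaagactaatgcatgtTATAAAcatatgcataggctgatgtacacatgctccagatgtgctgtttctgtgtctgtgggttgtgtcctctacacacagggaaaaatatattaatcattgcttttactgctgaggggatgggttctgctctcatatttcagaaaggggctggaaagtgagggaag
The Col1a2 window held 2 GGGCGG matches and 1 CCAAT on each strand, and the Col3a1 window held 1 TATAAA and neither of the other motifs. Among all 32851 windows 37.4% held CCAAT, 13.6% TATAAA and 35.7% GGGCGG, and among the 38 collagen windows 34.2%, 13.2% and 60.5% did. These are matches of letters and say nothing about binding.

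The type V genes did not pass the test for UVB in either genotype. Col5a1 (ENSMUSG00000026837.17), a chain of type V collagen, which starts fibrils and limits their width, had 472, 692, 629 and 558 CPM in KO UVB, against 930.1, 771, 647 and 548 CPM in KO control libraries. The WT libraries had 574, 536, 642 and 635 CPM with UVB, against 669, 514, 853 and 417 CPM without. Groups overlapped in both genotypes, and UVB gave -0.30 ± 0.20 in KO skin (adjusted p = 0.271) and -0.04 ± 0.20 in WT skin (adjusted p = 0.913). Its partner Col5a2 gave -0.04 ± 0.20 in KO skin (adjusted p = 0.901) and 0.21 ± 0.20 in WT skin (adjusted p = 0.495).

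Col5a3 (ENSMUSG00000004098.8), the less common type V chain, separated the genotypes instead. It had 119, 139, 202 and 142 CPM in KO UVB libraries and 245, 168, 186 and 145 CPM in KO control libraries. WT libraries had 88.1, 103, 90.0 and 106 CPM with UVB and 106, 121, 89.8 and 60.2 CPM without. Every KO library lay above the WT libraries of the same treatment, although KO UVB library 1 (119 CPM) lay just under WT control library 2 (121 CPM). Col5a3 rose in KO control against WT control skin (0.98 ± 0.21, adjusted p = 0.0211), and in KO UVB against WT UVB skin the difference was 0.64 ± 0.21 (adjusted p = 0.14). The call in control skin was lost on leaving out WT control library 1 (adjusted p = 0.0511), 3 (0.0599) or 4 (0.0511) as well as KO control library 1 (0.0667) or 3 (0.0565), with differences of 0.82 to 1.04 in these fits. Over all alternatives its adjusted p ran from 0.000474 to 0.0667. The ratio of Col5a3 to Col5a1 CPM was 0.257 ± 0.0493 in KO UVB, 0.258 ± 0.0292 in KO control, 0.163 ± 0.0219 in WT UVB and 0.161 ± 0.0547 in WT control skin (SD, n = 4 each).

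**Figure D3:**
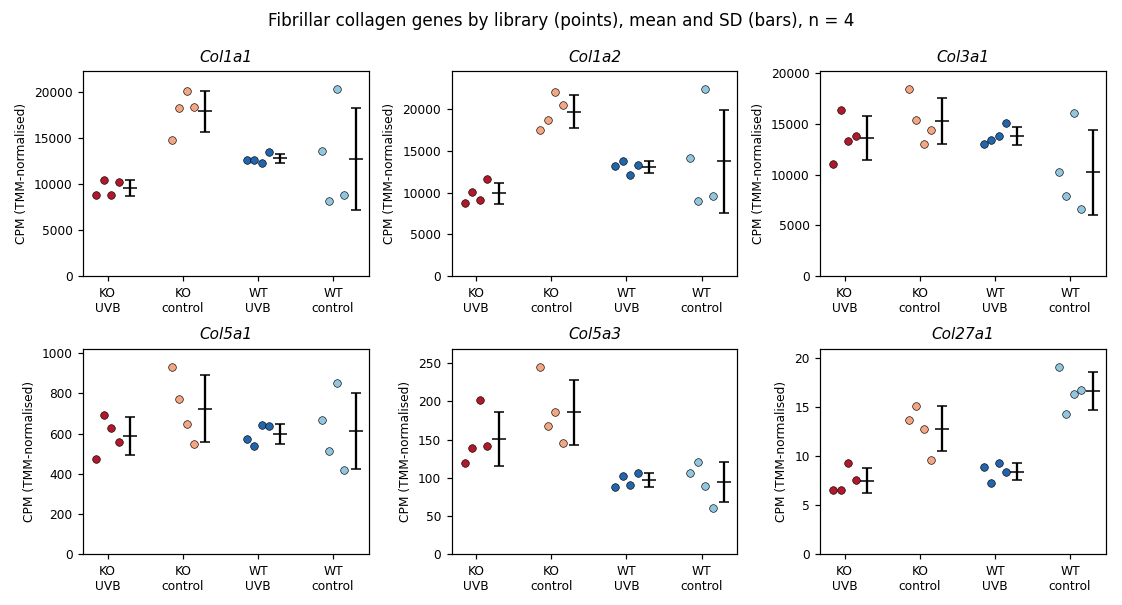
CPM (y axis) of 6 fibrillar collagen genes in each library (points) with mean and SD (bars, n = 4) for KO UVB, KO control, WT UVB and WT control skin. Col1a1 and Col1a2 are at 8793 to 10525 and 8780.3 to 11576 CPM in KO UVB libraries, below every KO control library, while Col3a1 overlaps between groups, Col5a3 is higher in KO control than in WT control libraries and Col27a1 is lower with UVB in both genotypes.

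Of the fibrillar genes, Col27a1 and Col2a1 were called in both genotypes. Col27a1 (ENSMUSG00000045672.16), the chain of type XXVII collagen, best known from cartilage, had 6.52, 6.56, 9.28 and 7.61 CPM in KO UVB, against 13.7, 15.1, 12.7 and 9.65 CPM in KO control libraries. With UVB, WT libraries had 8.86, 7.21, 9.31 and 8.33 CPM, against 19.1, 14.3, 16.4 and 16.8 CPM in WT controls. UVB and control did not overlap in either genotype, and Col27a1 fell in KO (-0.77 ± 0.15, adjusted p = 0.0015) and in WT skin (-0.98 ± 0.15, adjusted p = 0.000369). These calls held in all 27 alternatives for each contrast.

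Col2a1 (ENSMUSG00000022483.18), the main collagen of cartilage, was near its detection limit. KO UVB libraries had 0.747, 0.913, 0.415 and 1.5 CPM, against 0.340, 0.127, 0.106 and 0.111 CPM in KO control libraries (14 reads in all). WT UVB libraries had 1.25, 1.57, 0.872 and 0.889 CPM, against 0.0447, 0.124, 0.0874 and 0.224 CPM in WT control libraries (10 reads in all). The UVB libraries lay above the controls in both genotypes, and Col2a1 rose in KO (2.34 ± 0.48, adjusted p = 0.00225) and in WT skin (3.20 ± 0.50, adjusted p = 0.000456). With at most 7 reads in a KO control and 5 in a WT control library, Col2a1 passed the filter on low counts only through its UVB libraries. Its calls are therefore not independent of that filter. The 7 chondrocyte markers summed to 3.54 to 4.92 CPM in KO UVB against 3.62 to 4.33 CPM in KO control libraries, and to 2.80 to 3.30 CPM in WT UVB against 5.33 to 6.39 CPM in WT control libraries. Of these, Matn1, Matn3 and Snorc were too low to test. Of the 4 tested, Comp fell in WT skin, and in KO skin edgeR and DESeq2 called 0, limma voom called 1 and 1 stood at an unadjusted p under 0.05.

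Col24a1, a further low-level fibrillar chain, fell in KO skin with UVB (-1.12 ± 0.31, adjusted p = 0.0119) and gave -0.60 ± 0.31 in WT skin (adjusted p = 0.182). The KO call ended in a fit of the 2 KO groups alone (adjusted p = 0.0638) and without KO UVB libraries 3 and 4 (0.0656). Col11a1 and Col11a2, chains of the minor cartilage type XI, gave -0.12 ± 0.24 and -0.10 ± 0.24 in KO skin and -0.54 ± 0.24 and -0.15 ± 0.24 in WT skin, and edgeR called neither in any contrast with all libraries in 1 fit. Col11a1 was called lower in WT skin in a fit of the 2 WT groups alone (-0.53, adjusted p = 0.027) and without KO UVB libraries 3 and 4 (-0.54, adjusted p = 0.0326).

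Markers of cells that make or surround fibrillar collagen were read beside these genes, and the lists differed in direction. The 12 fibroblast markers, which hold no collagen gene, summed to 4471 to 7447 CPM in KO UVB against 5686 to 6967 CPM in KO control libraries, and to 5089.8 to 5745 CPM in WT UVB against 5209.7 to 6036 CPM in WT control libraries. Of the 12, Pdgfrb fell with UVB in each genotype and was the only call by edgeR (8.33%, against 32.3% of all genes in KO and 18.8% in WT skin). DESeq2 called 2 in each genotype, limma voom called 4 in KO and 3 in WT skin, and 3 in KO and 4 in WT skin stood at an unadjusted p under 0.05. With scaling set to hold these markers constant, Pdgfrb among them, KO UVB against KO control skin gave -0.92 for Col1a1 (adjusted p = 0.0105) and -1.02 for Col1a2 (adjusted p = 0.00527). The 8 skeletal muscle markers summed to 9954 to 16246 CPM in KO UVB against 20173 to 32444 CPM in KO control libraries, with 5 of 8 called lower (62.5%, against 32.3% of all genes called). In WT skin they summed to 13187 to 19774 CPM with UVB against 16740.0 to 22114 CPM without, with 1 of 8, Myh4, called lower (12.5%, against 18.8% of all genes called). The 6 suprabasal keratinocyte markers summed to 15494 to 48519 CPM in KO UVB against 7156 to 11782 CPM in KO control libraries and to 22848 to 30197 CPM in WT UVB against 5981 to 7546 CPM in WT control libraries. In each genotype 5 of 6 were called higher (83.3%, against 32.3% of all genes called in KO and 18.8% in WT skin). No marker on any list was at 0 in every library. The part of fibroblasts, muscle and epidermis in the collagen changes was not tested.

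Within type IV collagen the calls lay on 1 of 3 gene pairs. In KO UVB against KO control skin 2 of the 6 genes were called (33.3%, near the 32.3% of all genes), both lower, with a median log2 fold change of -0.27. In WT UVB against WT control skin 1 was called (16.7%, near the 18.8% of all genes), lower, with a median of -0.03. The called genes were Col4a5 and Col4a6, which encode the alpha 5 and alpha 6 chains found in the epidermal basement membrane. Col4a1 and Col4a2, the chains of almost all basement membranes, were not called with UVB in either genotype.

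Col4a6 (ENSMUSG00000031273.17) had 12.3, 9.07, 7.85 and 6.42 CPM in KO UVB, against 19.1, 28.0, 31.7 and 32.7 CPM in KO control libraries. In WT skin it had 11.6, 16.7, 14.2 and 13.8 CPM in UVB libraries, against 23.1, 18.9, 29.8 and 25.4 CPM in control libraries. UVB libraries lay below controls in both genotypes without overlap. Col4a6 fell in KO (-1.64 ± 0.21, adjusted p = 7.7e-05), the smallest adjusted p of any collagen gene in that contrast, and in WT skin (-0.79 ± 0.20, adjusted p = 0.0138). The WT call ended when scaling held the fibroblast markers constant (-0.64, adjusted p = 0.186). The interaction was -0.86 ± 0.29 (adjusted p = 0.243).

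Col4a5 (ENSMUSG00000031274.17) had 25.8, 17.1, 15.3 and 17.9 CPM in KO UVB, against 29.9, 32.7, 36.2 and 30.9 CPM in KO control libraries, with no overlap. In WT skin the UVB libraries had 24.8, 28.7, 23.7 and 27.0 CPM, against 29.1, 26.0, 32.6 and 26.0 CPM in control libraries, which overlapped. Col4a5 fell in KO UVB against KO control skin (-0.77 ± 0.14, adjusted p = 0.000818), and in WT skin the change was -0.13 ± 0.14 (adjusted p = 0.548). The ratio of Col4a5 to Col4a6 CPM was 2.18 ± 0.417 in KO UVB against 1.21 ± 0.259 in KO control skin, and 1.87 ± 0.214 in WT UVB against 1.19 ± 0.159 in WT control skin (SD, n = 4 each). Its libraries ranged over 1.89 to 2.79 in KO UVB against 0.946 to 1.56 in KO control skin and over 1.68 to 2.13 in WT UVB against 1.03 to 1.38 in WT control skin, with no overlap in either genotype and no test.

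Col4a5 and Col4a6 are shown next because they lie head to head on the X chromosome and fell together in KO skin. Their annotated starts are 1343 bases apart, and those of the head-to-head pair Col4a1 and Col4a2 are 21 bases apart. The RefSeq windows on GRCm38.p6 are chrX:141475169-141475468 on the plus strand for Col4a5 and chrX:141474027-141474326 on the minus strand for Col4a6, with capitals for the motifs given above, read on either strand.
Col4a5: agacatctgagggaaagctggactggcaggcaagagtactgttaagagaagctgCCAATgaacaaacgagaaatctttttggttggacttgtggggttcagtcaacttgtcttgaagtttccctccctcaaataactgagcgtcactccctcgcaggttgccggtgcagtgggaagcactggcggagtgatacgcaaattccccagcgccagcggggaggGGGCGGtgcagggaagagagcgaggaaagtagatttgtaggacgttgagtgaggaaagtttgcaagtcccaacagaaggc
Col4a6: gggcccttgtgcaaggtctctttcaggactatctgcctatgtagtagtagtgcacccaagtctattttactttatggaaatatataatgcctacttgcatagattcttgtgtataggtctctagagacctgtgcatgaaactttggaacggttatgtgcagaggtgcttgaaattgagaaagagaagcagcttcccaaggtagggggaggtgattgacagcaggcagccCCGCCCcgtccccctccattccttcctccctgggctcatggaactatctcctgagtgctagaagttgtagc
The Col4a5 window held 1 CCAAT and 1 GGGCGG, and the Col4a6 window held 1 GGGCGG on the opposite strand. Neither held TATAAA.

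Col4a1 (ENSMUSG00000031502.12) had 673, 761, 647 and 522 CPM in KO UVB, against 839.6, 598, 656 and 485 CPM in KO control libraries. The WT libraries had 460.5, 375, 398 and 518 CPM with UVB, against 481, 576, 429.6 and 374 CPM without. With UVB, the lowest KO library (522 CPM) lay just above the highest WT library (518 CPM). UVB gave 0.01 ± 0.17 in KO (adjusted p = 0.962) and -0.09 ± 0.17 in WT skin (adjusted p = 0.76). Its partner Col4a2 (ENSMUSG00000031503.14) had 492, 589, 467 and 359 CPM in KO UVB, against 498, 395, 429 and 338 CPM in KO control libraries. WT libraries of Col4a2 had 352, 289, 314 and 385 CPM with UVB, against 345, 376, 333 and 270.1 CPM without. All groups of Col4a2 overlapped, and UVB gave 0.20 ± 0.16 in KO (adjusted p = 0.345) and 0.02 ± 0.16 in WT skin (adjusted p = 0.951). In KO skin limma voom with sample quality weights called Col4a2 higher (0.39, adjusted p = 0.0402). The 8 endothelial markers, of cells that make these chains, summed to 373 to 494 CPM in KO UVB, 385 to 477 in KO control, 344 to 429.5 in WT UVB and 399 to 483 CPM in WT control libraries. Of these 8, edgeR called 0 in each of the 5 contrasts (with UVB, against 32.3% of all genes in KO and 18.8% in WT skin). At an unadjusted p under 0.05 there were 0 or 1 a contrast, DESeq2 called 0 or 1 and limma voom 0 to 2.

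Col4a3 and Col4a4, which pair with Col4a5 in specialised basement membranes such as that of the kidney glomerulus, gave -0.18 ± 0.32 and -0.36 ± 0.24 in KO UVB against KO control skin and 0.48 ± 0.33 and 0.37 ± 0.24 in WT UVB against WT control skin, and neither was called. Col4a4 averaged 31.0 ± 1.80 CPM in KO control and 18.0 ± 4.20 CPM in WT control skin (SD, n = 4 each), whose libraries did not overlap, with a difference of 0.78 ± 0.24 (adjusted p = 0.155). A fit of these 2 groups alone called it (0.78, adjusted p = 0.0295).

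**Figure D4:**
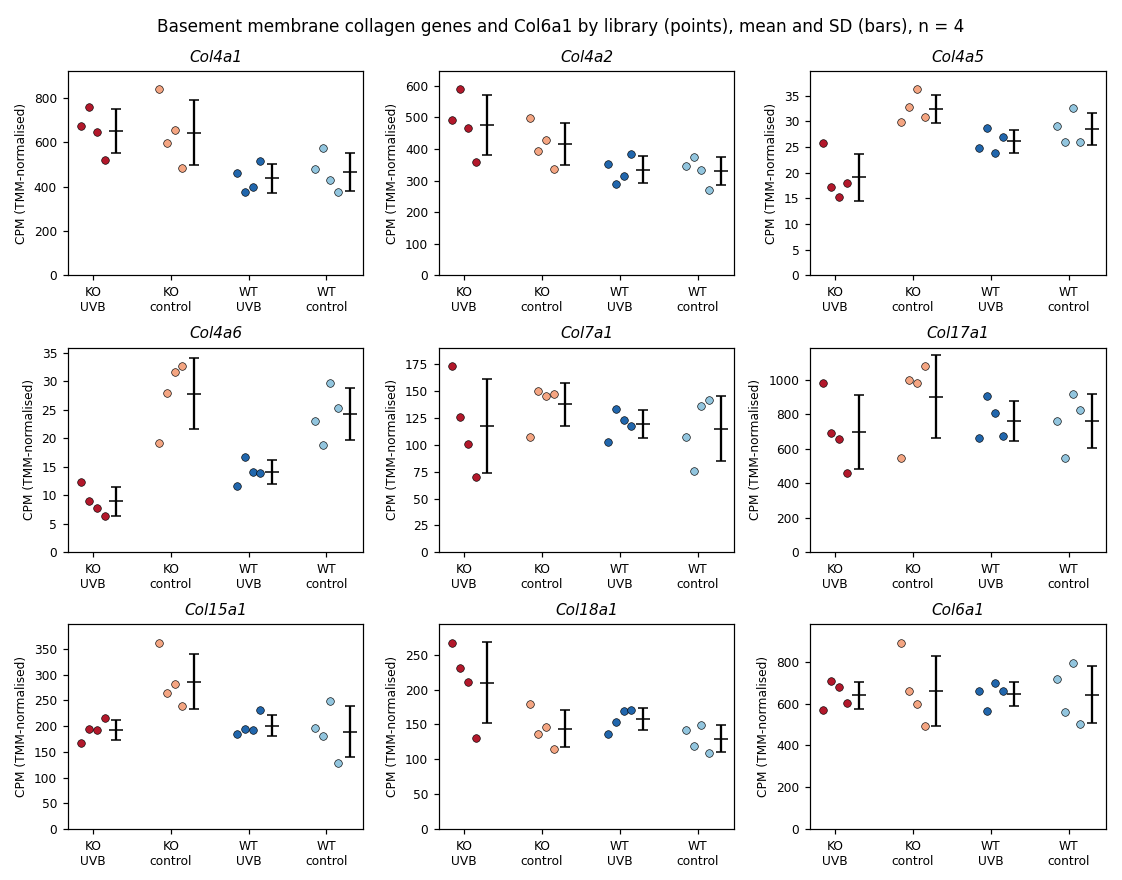
CPM (y axis) of 8 basement membrane collagen genes and Col6a1 in each library (points) with mean and SD (bars, n = 4) for KO UVB, KO control, WT UVB and WT control skin. Col4a6 is at 6.42 to 12.3 CPM in KO UVB against 19.1 to 32.7 CPM in KO control libraries, while Col4a1, Col4a2, Col7a1, Col17a1 and Col6a1 overlap between UVB and control in both genotypes.

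Of the 4 basement membrane zone genes, 1 rose and 1 fell in KO skin, where 32.3% of all genes were called. Their median log2 fold change in KO skin was -0.30. In WT skin edgeR, DESeq2 and limma voom called 0 of the 4, where edgeR called 18.8% of all genes. There 0 stood at an unadjusted p under 0.05, and the median was 0.07. The anchors of the epidermis did not pass the test in either genotype. Col17a1 (ENSMUSG00000025064.16), the hemidesmosome collagen made by basal keratinocytes, had 984, 693, 654 and 462 CPM in KO UVB, against 547, 999.6, 985 and 1079.9 CPM in KO control libraries. With UVB, WT libraries had 661, 906, 811 and 674 CPM, against 759.6, 549, 917 and 824 CPM in WT controls. Groups overlapped, and UVB gave -0.37 ± 0.24 in KO (adjusted p = 0.244) and 0.00 ± 0.24 in WT skin (adjusted p = 1). Col7a1 (ENSMUSG00000025650.14), the chain of anchoring fibrils, had 173, 126, 100.4 and 69.6 CPM in KO UVB, against 107, 149.9, 146 and 148 CPM in KO control libraries. WT libraries of Col7a1 had 103, 134, 124 and 118 CPM with UVB, against 107, 75.7, 136 and 142 CPM without. Here too groups overlapped, with -0.23 ± 0.23 in KO (adjusted p = 0.474) and 0.05 ± 0.23 in WT skin (adjusted p = 0.903). Both genes were highest in library 1 among the KO UVB libraries and lowest in library 1 among the KO control libraries. The basal keratinocyte markers summed to 15880.4, 12309.8, 9889.9 and 6839 CPM in KO UVB libraries 1 to 4, against 5375, 6888, 6911 and 8657 CPM in KO control libraries. In WT skin they summed to 9179.8 to 11716 CPM with UVB against 5106 to 8116 CPM without. Of the 7 markers, Krt14 and Krt5 rose and Krt15 and Dst fell in KO skin (57.1% called, against 32.3% of all genes), and their part in these values was not tested.

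Col15a1 and Col18a1, related collagens that sit at the border of basement membrane and stroma, moved in opposite directions in KO skin. Col15a1 (ENSMUSG00000028339.18) had 168, 194, 192 and 216 CPM in KO UVB, against 362, 264, 282 and 240.0 CPM in KO control libraries. WT UVB libraries had 185, 195, 192 and 232 CPM, against 197, 181, 249.8 and 129 CPM in WT control libraries. The KO groups did not overlap and the WT groups did. Col15a1 fell in KO skin (-0.58 ± 0.17, adjusted p = 0.0157), and the call ended without KO control library 1 (adjusted p = 0.0528). In WT skin the change was 0.09 ± 0.17 (adjusted p = 0.749).

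Col18a1 (ENSMUSG00000001435.16), the source of the fragment endostatin, had 267, 232, 211 and 131 CPM in KO UVB, against 179, 137, 146 and 115 CPM in KO control libraries. In WT skin it had 137, 153, 169 and 171 CPM in UVB libraries, against 142, 119, 149.7 and 108 CPM in control libraries. KO UVB library 4 lay inside the KO control range and the other KO UVB libraries above it. Col18a1 rose in KO skin (0.54 ± 0.18, adjusted p = 0.0335) and gave 0.28 ± 0.18 in WT skin (adjusted p = 0.308). This call was among the least stable, since it was lost on leaving out KO UVB library 1 (adjusted p = 0.11), 2 (0.0798) or 3 (0.0568), and also KO control library 2 (0.0808), 3 (0.067) or 4 (0.0917). It also ended with library totals as scaling (adjusted p = 0.0567).

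Type VI collagen, which forms beaded filaments between fibrils and around basement membranes, gave 0 calls by edgeR among its 5 tested genes in each of the 5 contrasts (with UVB, against 32.3% of all genes in KO and 18.8% in WT skin). At an unadjusted p under 0.05 there was 1 in WT UVB against WT control skin and 0 in the others, and neither DESeq2 nor limma voom called a type VI gene in any contrast. Col6a1 (ENSMUSG00000001119.8) had 570.4, 708, 680.1 and 604 CPM in KO UVB, against 890.5, 661, 597 and 495 CPM in KO control libraries. The WT libraries had 659, 565, 701 and 663 CPM with UVB, against 718, 558, 793 and 501 CPM without. All groups overlapped, and KO control library 1 was the highest of all. UVB gave -0.05 ± 0.17 in KO (adjusted p = 0.866) and 0.01 ± 0.17 in WT skin (adjusted p = 0.977). The other chains of the main filament, Col6a2 and Col6a3, gave 0.01 ± 0.21 and 0.02 ± 0.24 in KO skin and 0.11 ± 0.21 and 0.17 ± 0.24 in WT skin. Col6a5 and Col6a6, rarer chains that can stand in for Col6a3, gave 0.11 ± 0.41 and -0.64 ± 0.32 in KO and -0.90 ± 0.41 and -0.27 ± 0.32 in WT skin. The class median was 0.01 in both genotypes.

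Of the 9 fibril-associated genes, whose proteins bind to the surface of fibrils, 7 were tested. In KO UVB against KO control skin 3 were called (42.9%, against 32.3% of all genes), all lower, namely Col20a1, Col19a1 and Col22a1, with a class median of -0.29. In WT UVB against WT control skin 0 were called by edgeR, DESeq2 or limma voom and 1 stood at an unadjusted p under 0.05, with a median of -0.27, where edgeR called 18.8% of all genes. The called genes had group means under 8 CPM, and the more abundant members Col12a1, Col14a1 and Col16a1 did not pass the test.

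Col20a1 (ENSMUSG00000016356.19), a fibril-associated chain whose function in skin is little known, had 3.88, 4.22, 3.97 and 4.14 CPM in KO UVB, against 7.63, 8.14, 6.92 and 7.15 CPM in KO control libraries. With UVB, WT libraries had 4.61, 5.74, 6.35 and 3.61 CPM, against 5.50, 5.83, 6.82 and 6.41 CPM in WT controls. The KO groups lay well apart and the WT groups overlapped. Col20a1 fell in KO skin (-0.88 ± 0.15, adjusted p = 0.00062) and gave -0.27 ± 0.15 in WT skin (adjusted p = 0.216). Col22a1, a collagen of the junction of muscle and tendon, fell in KO skin (-1.08 ± 0.32, adjusted p = 0.0173), a call that ended without KO control library 1 (adjusted p = 0.0625) and in a fit of the 2 KO groups alone (0.0549). In WT skin Col22a1 gave -0.31 ± 0.33 (adjusted p = 0.547). Col19a1, with 18 reads in all KO UVB libraries together, fell in KO skin (-1.74 ± 0.57, adjusted p = 0.0282). With at most 6 reads in a KO UVB and 9 in a WT UVB library, Col19a1 passed the filter on low counts only through its control libraries. Its calls are therefore not independent of that filter. In WT skin Col19a1 gave -1.45 ± 0.57 (adjusted p = 0.0887), and it was called lower there without KO control library 3 (-1.45, adjusted p = 0.0448) and in a fit of the 2 WT groups alone (-1.42, adjusted p = 0.0485). The Col19a1 call in KO skin ended without KO control library 3 (-1.07, adjusted p = 0.146), without KO UVB library 3 (adjusted p = 0.0777) and without KO UVB library 4 (adjusted p = 0.0593). The skeletal muscle markers given above were also lower in KO UVB than in KO control libraries, and their part in the Col22a1 value was not tested.

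Col12a1 (ENSMUSG00000032332.18), which links fibrils in tissues under load, had 108, 145, 119 and 51.9 CPM in KO UVB, against 146, 55.2, 48.2 and 39.9 CPM in KO control libraries. WT UVB libraries had 74.5, 75.1, 67.2 and 82.3 CPM, against 74.6, 85.4, 96.4 and 90.5 CPM in WT control libraries. KO control library 1 alone stood at the level of the highest KO UVB libraries. UVB gave 0.55 ± 0.35 in KO (adjusted p = 0.237) and -0.21 ± 0.35 in WT skin (adjusted p = 0.701). Without KO control library 1 the change in KO skin was 1.16 (adjusted p = 0.00321), and limma voom with sample quality weights gave 1.24 (adjusted p = 0.000825).

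Col14a1 (ENSMUSG00000022371.17), a relative of Col12a1 that is common in dermis, had 194, 326, 288 and 241 CPM in KO UVB, against 331, 263, 186 and 134 CPM in KO control libraries. In WT skin it had 233, 133, 215 and 205 CPM in UVB libraries, against 203, 202, 272 and 147 CPM in control libraries. All groups overlapped, with 0.20 ± 0.26 in KO (adjusted p = 0.599) and -0.07 ± 0.26 in WT skin (adjusted p = 0.883). Col16a1 gave -0.25 ± 0.16 in KO and -0.28 ± 0.16 in WT skin, and the cartilage chain Col9a3 gave -0.29 ± 0.23 and 0.29 ± 0.23, with adjusted p from 0.231 to 0.394. Of the reads on Col9a3, 12.6% lay on the opposite strand.

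Of the short-chain collagens, which build hexagonal networks in vessels and the cornea, Col8a2 fell in KO skin and Col8a1 did not pass the test. Over these 2 tested genes the median log2 fold change was -0.47 in KO and -0.06 in WT skin. Col8a2 (ENSMUSG00000056174.9) had 6.62, 4.79, 5.54 and 4.83 CPM in KO UVB, against 8.31, 16.2, 11.6 and 9.65 CPM in KO control libraries. The WT libraries had 9.14, 11.7, 9.06 and 9.44 CPM with UVB, against 10.4, 6.14, 11.6 and 11.2 CPM without. The KO UVB libraries lay below all KO control and all WT UVB libraries. Col8a2 fell in KO skin (-1.07 ± 0.22, adjusted p = 0.00196) and gave 0.00 ± 0.21 in WT skin (adjusted p = 0.993), with an interaction of -1.07 ± 0.30 (adjusted p = 0.197). Col8a1, its partner chain, gave 0.13 ± 0.32 in KO (adjusted p = 0.781) and -0.11 ± 0.31 in WT skin (adjusted p = 0.844). Without KO control library 1, edgeR called Col8a1 higher in KO skin (0.68, adjusted p = 0.0282).

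Among the 5 transmembrane and other genes, 2 were called in KO skin, both lower, where 32.3% of all genes were called. In WT skin 1 of the 5 was called, lower, where 18.8% of all genes were called. The class medians were -0.55 in KO and -0.44 in WT skin. Col23a1 (ENSMUSG00000063564.14), a transmembrane collagen of epithelia, had 28.1, 27.0, 29.7 and 21.9 CPM in KO UVB, against 27.5, 39.8, 43.1 and 45.6 CPM in KO control libraries. With UVB, WT libraries had 19.1, 25.6, 22.4 and 17.7 CPM, against 31.5, 24.3, 33.1 and 29.7 CPM in WT controls. In each genotype 1 control library lay inside the UVB range. Col23a1 fell in KO (-0.55 ± 0.16, adjusted p = 0.0148) and in WT skin (-0.49 ± 0.16, adjusted p = 0.0435). The KO call ended without KO control library 4 (adjusted p = 0.0539). The WT call was weak and was lost on leaving out WT UVB library 1 (adjusted p = 0.115), 3 (0.0861) or 4 (0.145), and likewise WT control library 1 (0.116), 3 (0.103) or 4 (0.0781). It was also lost without KO UVB library 1 or 2 or KO control library 2, 3 or 4 (adjusted p 0.051 to 0.0653), which enter through the shared estimate of spread. Col26a1, a small secreted collagen, fell in KO skin (-1.50 ± 0.39, adjusted p = 0.00871) with at most 2.48 CPM in any library. That maximum was KO control library 1, where the other KO control libraries had 0.745 to 1.14 CPM. In WT skin Col26a1 gave -0.29 ± 0.41 (adjusted p = 0.658), and the interaction was -1.21 ± 0.57 (adjusted p = 0.391). Col13a1, a transmembrane collagen of the nerve and muscle junction, Col25a1, a transmembrane collagen of neurons, and Col28a1, which lies near nerve basement membranes, gave 0.07 ± 0.20, -0.77 ± 0.40 and -0.49 ± 0.25 in KO skin and -0.39 ± 0.21, -0.44 ± 0.36 and -0.45 ± 0.25 in WT skin. Without KO UVB library 2, Col25a1 was called lower in KO skin (-1.16, adjusted p = 0.047). With at most 8 reads in a KO UVB and 9 in a WT UVB library, Col25a1 passed the filter on low counts only through its control libraries. That call is therefore not independent of the filter. The 7 Schwann cell markers summed to 373 to 649 CPM in KO UVB against 565 to 758 CPM in KO control libraries and to 463 to 543 CPM in WT UVB against 755 to 962 CPM in WT control libraries. Called lower were 6 of 7 in KO skin (85.7%, against 32.3% of all genes called) and 7 of 7 in WT skin (100%, against 18.8%). The part of these markers in the collagen values was not tested.

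Between genotypes, few collagen genes passed the test. With UVB, edgeR called 0 of the 40 genes in KO UVB against WT UVB skin, where 0.856% of all genes were called, and 10 stood at an unadjusted p under 0.05, where 16.3% of all genes did. DESeq2 called 3, with Col4a1 and Col4a2 higher and Col8a2 lower, and limma voom with sample quality weights called 5, adding Col4a5 and Col9a3 as lower. Libraries did not overlap for 5 genes, where 8.16% of all genes had no overlap. Col4a1 and Col5a3 lay higher and Col1a1, Col1a2 and Col8a2 lower in KO UVB than in WT UVB libraries. In edgeR the differences were 0.57 ± 0.17 for Col4a1 (adjusted p = 0.123), 0.51 ± 0.16 for Col4a2 (0.123), -0.41 ± 0.23 for Col1a1 (0.397), -0.40 ± 0.24 for Col1a2 (0.416) and -0.85 ± 0.22 for Col8a2 (0.074). The count depended on single libraries. Without KO UVB library 1 it was 3 (Col4a5, Col4a6 and Col8a2, all lower), without KO UVB library 4 it was 2 (Col18a1 and Col4a2, both higher), and without KO control library 2 or WT control library 2 it was 1 (Col8a2). Without KO UVB libraries 3 and 4 together it was 1 (Col4a2).

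Without UVB, 1 of the 40 genes, Col5a3, was called higher in KO control than in WT control skin and 0 lower, where 1.69% of all genes were called. At an unadjusted p under 0.05 there were 11, where 10.9% of all genes stood there. Of the 40 log2 differences 31 were above 0 and 9 below, with a median of 0.24 against 0.00 over all genes. All 6 type IV genes were above 0, with a median of 0.40, 3 at an unadjusted p under 0.05 and 0 called. Libraries did not overlap for 4 genes, Col5a3, Col4a4, Col20a1 and Col26a1, all higher in KO control, where 7.68% of all genes had no overlap. The value of the fibrillar genes turned on WT control library 3, the WT control library with the highest Col1a1, Col1a2 and Col3a1. With it, the differences were 0.49 ± 0.23 for Col1a1 (adjusted p = 0.466), 0.52 ± 0.24 for Col1a2 (0.441) and 0.58 ± 0.23 for Col3a1 (0.335). Without it, edgeR called 4 genes higher in KO control skin, Col1a1 (0.80, adjusted p = 0.0466), Col1a2 (0.85, 0.0319), Col3a1 (0.88, 0.0343) and Col15a1 (0.76, 0.026), and Col5a3 lost its call. The count was 0 without WT control library 1 or 4 or KO control library 1 or 3. With all libraries, Col15a1 stood at 0.60 ± 0.17 (adjusted p = 0.102), and DESeq2 (0.0254) and limma voom (0.0352) called it. The anagen hair markers differed between these groups, with 12 of 16 called lower in KO control skin (75.0%, against 1.69% of all genes called). Their part in the collagen values was not tested. These genotype contrasts share libraries with the UVB contrasts, so the values given for a gene in the different contrasts are not independent.

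**Figure D5:**
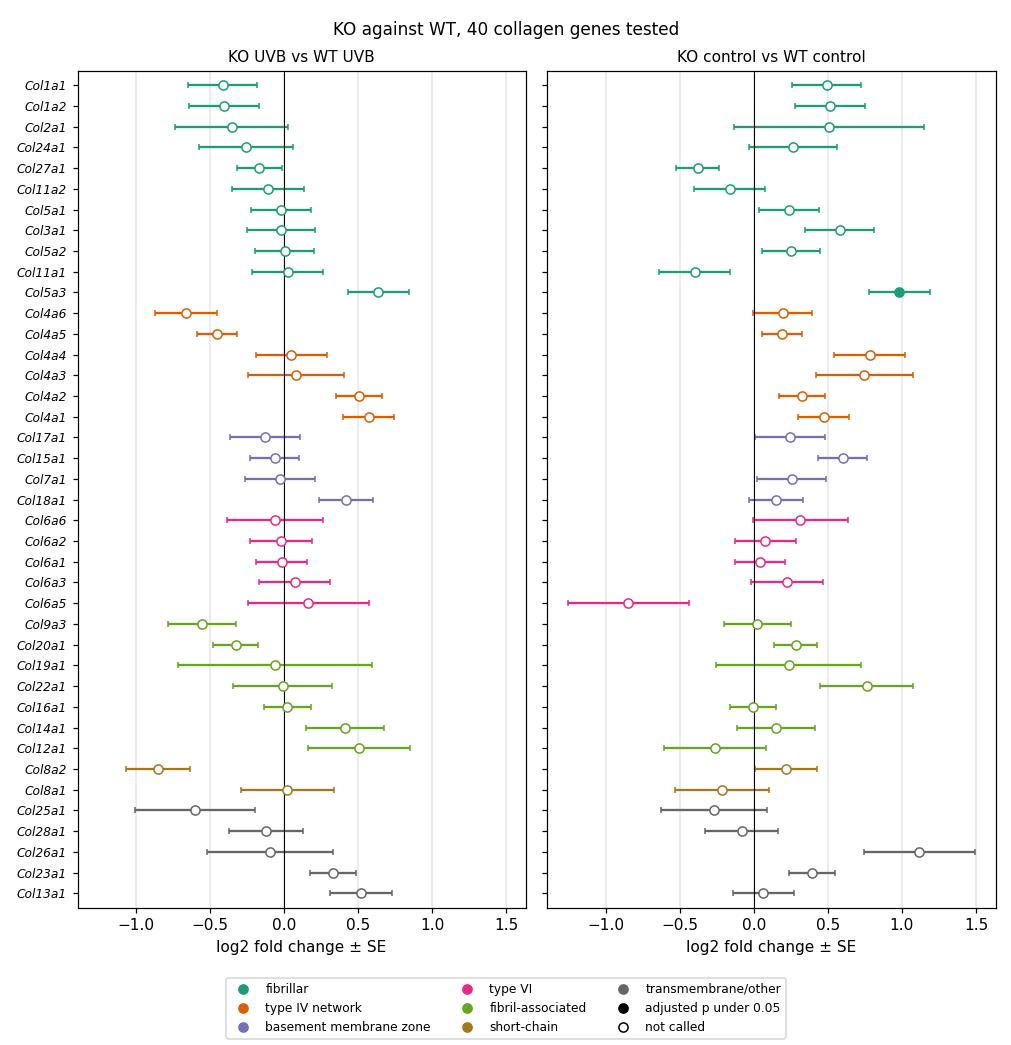
Log2 fold change ± SE (x axis) of the 40 collagen genes tested (y axis, grouped by class in colour) for KO against WT skin with UVB (left) and without UVB (right), with filled points at adjusted p under 0.05. The only filled point is Col5a3 without UVB, at 0.98, and in that contrast 31 of 40 points lie right of 0.

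Genes that modify, cut, bind and degrade collagen were read from 7 lists beside the collagen genes. Of 19 genes for chain modification and folding, 2 rose and 1 fell in KO UVB against KO control skin (15.8% called, against 32.3% of all genes). P4hb, the disulfide isomerase that is a subunit of prolyl 4-hydroxylase, was at 571 ± 42.8 CPM in KO UVB and 409.7 ± 49.0 CPM in KO control skin (0.48 ± 0.10, adjusted p = 0.00291). Ppib, a prolyl isomerase that helps chains fold, rose (0.44 ± 0.11, adjusted p = 0.0058), and P3h3, of the prolyl 3-hydroxylase family, fell (-0.33 ± 0.12, adjusted p = 0.0463). In WT skin 0 rose and 1 fell (5.26%, against 18.8% of all genes), P4ha1, a catalytic subunit of prolyl 4-hydroxylase (-0.45 ± 0.13, adjusted p = 0.0297). Both P4hb and Ppib also serve other secreted proteins.

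Of 13 genes for propeptide cleavage and cross-linking, 0 rose and 2 fell in KO skin (15.4% called) and 0 rose and 1 fell in WT skin (7.69%). Both shares lay under those of all genes. Adamts14, which can cut the amino-terminal propeptide from procollagen, was at 18.1 ± 1.97 CPM in KO UVB and 33.1 ± 3.56 CPM in KO control skin (-0.87 ± 0.12, adjusted p = 0.000153). In WT skin it was at 20.0 ± 1.58 CPM with UVB and 28.2 ± 4.94 CPM without (-0.50 ± 0.12, adjusted p = 0.00995). Tll2, a tolloid-like protease, fell in KO skin at a low level (-1.70 ± 0.59, adjusted p = 0.0379). Among 12 fibril-binding proteoglycans and partners, 2 fell in KO skin (16.7%, against 32.3% of all genes). In WT skin edgeR called 0, DESeq2 called 1, limma voom called 3 and 5 stood at an unadjusted p under 0.05. Sparc, a matrix protein that binds fibrillar collagen, was at 5229 ± 1827 CPM in KO UVB and 8885 ± 1651 CPM in KO control skin (-0.76 ± 0.24, adjusted p = 0.0256), and Fmod, a fibril-binding proteoglycan, fell as well (-0.92 ± 0.17, adjusted p = 0.0012).

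Of 22 basement membrane partners, 0 rose and 7 fell in KO UVB against KO control skin, with a median of -0.27. That is 31.8% called, near the 32.3% of all genes, of which 15.1% were lower. In WT skin edgeR and limma voom called 0, DESeq2 called 1 and 3 stood at an unadjusted p under 0.05, with a median of -0.12. Frem2 (-1.11 ± 0.22, adjusted p = 0.00173), Fras1 (-1.40 ± 0.28, adjusted p = 0.00177) and Frem1 (-0.99 ± 0.28, adjusted p = 0.0129), which form a complex at the epidermal basement membrane, fell together in KO skin. Fras1 was at 3.35 ± 1.04 CPM in KO UVB and 8.83 ± 2.33 CPM in KO control skin. The other called members were Dst, Agrn, Lamb2 and Plec. Among 9 tested collagen receptors 1 fell in each genotype (11.1%, against 32.3% of all genes in KO and 18.8% in WT skin): Itga2, an integrin subunit, in KO skin (-0.58 ± 0.20, adjusted p = 0.0342) and Ddr2, a receptor tyrosine kinase for fibrillar collagen, in WT skin (-0.51 ± 0.09, adjusted p = 0.000929). Ddr2 was also higher in KO UVB than in WT UVB skin, at 219.9 ± 3.58 against 151 ± 11.5 CPM (0.54 ± 0.09, adjusted p = 0.00674).

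Of 11 tested genes for collagen degradation, 2 rose and 2 fell in KO skin and 2 rose and 3 fell in WT skin. The shares called were 36.4% in KO skin, near the 32.3% of all genes, and 45.5% in WT skin, where 18.8% of all genes were called. Mmp8, the collagenase of neutrophils, was at 2.09 ± 0.934 CPM in KO UVB and 0.247 ± 0.112 CPM in KO control skin (3.05 ± 0.41, adjusted p = 0.000123), and at 1.43 ± 0.450 CPM in WT UVB and 0.284 ± 0.109 CPM in WT control skin (2.30 ± 0.41, adjusted p = 0.00129). Timp1, an inhibitor of metalloproteinases, rose in KO skin (2.02 ± 0.39, adjusted p = 0.00139), and Mmp3, stromelysin 1, rose in WT skin (0.73 ± 0.21, adjusted p = 0.0241). Timp3, an inhibitor held in the matrix, fell in KO (-0.52 ± 0.13, adjusted p = 0.00784) and in WT skin (-0.45 ± 0.13, adjusted p = 0.027). Of 15 genes of the TGF-beta axis, a main driver of collagen expression, 1 rose and 6 fell in KO skin and 0 rose and 2 fell in WT skin. The shares called were 46.7% in KO skin, against 32.3% of all genes, and 13.3% in WT skin, near the 18.8% of all genes. Ltbp2 (-0.96 ± 0.18, adjusted p = 0.00125), a matrix protein of the latent TGF-beta binding family, the ligand Tgfb3 (-0.44 ± 0.08, adjusted p = 0.00134) and the receptor Tgfbr1 (-0.27 ± 0.07, adjusted p = 0.00606) fell in KO skin. In WT skin Smad7, an inhibitory Smad (-0.54 ± 0.13, adjusted p = 0.00823), and Tgfb3 (-0.31 ± 0.08, adjusted p = 0.0163) fell.

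In KO UVB against WT UVB skin Ddr2 was the only call by edgeR on these 7 lists, where 0.856% of all genes were called. DESeq2 called 0 to 4 and limma voom 0 to 3 genes a list in that contrast. In KO control against WT control skin there were 2 over all 7 lists, where 1.69% of all genes were called. Tgfb2, a TGF-beta ligand, rose (0.79 ± 0.18, adjusted p = 0.0404), and Plod1, a lysyl hydroxylase of collagen, fell (-0.46 ± 0.11, adjusted p = 0.0383). The interaction called 0 genes of these lists with edgeR, where 0.0228% of all genes were called. It called 0 or 1 a list with DESeq2 and with limma voom, and 0 to 3 a list stood at an unadjusted p under 0.05.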

How the data were processed

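RNA sequencing of whole dorsal skin gave 16 libraries, grouped by the genotype and treatment labels into 4 groups of 4. Per the labels' protocols, tissue was ground in liquid nitrogen, Trizol served to isolate RNA, and strand-specific libraries of poly(A) RNA were built with the NEBNext Ultra II chemistry. STAR and GRCm39 are named in the submitters' processing notes. Neither the STAR version nor the annotation release was given in the sources used here. The authors deposited raw read counts per gene, with no normalisation, in columns for unstranded reads and for each strand. The reverse-strand counts were used, since 95.74% of stranded reads lay there. Lines for unmapped (10.7 to 19.5% of reads), no-feature (7.25 to 10.2%) and ambiguous reads (1.18 to 1.42%) stayed out of library sizes. The 17 value columns of a combined table were not used.

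Symbols, gene lengths and chromosomes came from GENCODE M21 on GRCm38, which named 52083 of 55359 IDs. No gene coordinates were taken from it, and promoter windows are RefSeq's on GRCm38.p6. Counts were fitted with edgeR 4.0.16 (robust quasi-likelihood, TMM, filterByExpr) in R 4.3.3 as 1 model of 4 groups with 5 contrasts and no covariate. Calls required a Benjamini-Hochberg adjusted p under 0.05 over all 17531 genes tested, which held 99.9% of reads in genes. The common biological coefficient of variation was 0.180 and TMM factors were 0.940 to 1.07. The fit was tested on simulated counts with known changes. Alternatives were DESeq2 1.42.0, limma 3.58.1 (voom with sample quality weights), other scalings, filters on low counts, unstranded counts, the 2 groups alone, a replicate block and left-out libraries. The chi-square per degree of freedom between libraries of 1 group was 13.6 to 143, so all differed by more than sampling noise.

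The members, classes and lists were chosen with earlier results of these data known. Values by library are given for 13 genes fixed by name and for the 6 called genes with the smallest adjusted p in each contrast, 21 in all. Other called members are given by log2 fold change. For the lists, values are given for the 3 called genes with the smallest adjusted p in each list and contrast. Fold changes come from edgeR, with standard errors derived from its F statistic.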

Additional observations from a re-analysis of the deposited data

Results flagged for a closer look

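In 84 checks, of 21 genes in 4 groups of 4 libraries each, 4 libraries stood further from the other 3 than Dixon's 95% critical value for 4 samples allows. Chance gives about 1 such library in 20 groups. KO control library 1 was that library for 3 genes. It had 146 CPM of Col12a1, where the other KO control libraries had 39.9 to 55.2 CPM. It had 0.340 CPM of Col2a1, where the others had 0.106 to 0.127 CPM, and 107 CPM of Col7a1, where the others had 146 to 149.9 CPM. The same library had the highest skeletal muscle marker sum of the KO control group, 32444 CPM against 20173 to 25524 CPM, and the lowest basal keratinocyte sum, 5375 CPM against 6888 to 8657 CPM. Whether these sums and the collagen values share a source was not tested. WT UVB library 2 had 11.7 CPM of Col8a2, where the other WT UVB libraries had 9.06 to 9.44 CPM.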

How the results depend on the processing

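Of 20 pairs of a called gene and a contrast, 11 kept their call in every alternative that could be fitted (up to 27 each) and 0 changed direction. Losses on leaving out 1 library are given in the report, as are some under other alternatives. Further losses were Col5a3 with no filter on low counts (adjusted p = 0.0514) and in the 2 groups alone (0.0587), Col18a1 with no filter (0.0564), in the 2 groups alone (0.0876) and with fibroblast marker scaling (0.0652), and Col23a1 with fibroblast marker scaling in KO (0.116) and WT skin (0.407). Col23a1 was also lost in WT skin with no filter (0.0547), and without KO UVB libraries 3 and 4 both Col23a1 (0.0614) and Col19a1 (0.166) were lost in KO skin. Counts of called collagen genes moved as follows, and the cause was not tested. For KO UVB against KO control skin, 15 (2 higher) became 10 (0 higher) in the 2 groups alone and 10 (1 higher) with a mean count of at least 100, a filter under which fewer genes are tested. For WT UVB against WT control skin, 4 became 6 in the 2 groups alone, adding Col11a1 and Col19a1, and 5 without KO UVB libraries 3 and 4, adding Col11a1. It became 2 when scaling held the fibroblast markers constant. For KO UVB against WT UVB skin, 0 became 3 with DESeq2, 5 with limma voom and 1 without KO UVB libraries 3 and 4. For KO control against WT control skin, 1 became 2 with DESeq2 and with limma voom and 0 with no filter on low counts, and the 2 groups alone called Col4a4 in place of Col5a3. For the interaction, 0 became 5 with limma voom. Leaving out each of the 16 libraries in turn gave 13 to 15, 3 to 4, 0 to 3, 0 to 4 and 0 to 0 calls for KO UVB against KO control, WT UVB against WT control, KO UVB against WT UVB, KO control against WT control and the interaction. No pairing of the libraries by replicate number was detected. Over 24 same-numbered pairs the correlation of deviations from group means ran from -0.40 to 0.22, and 3 were over 0.1. In 8 of 48 comparisons a library correlated best with its own number. Weak correlations over all genes do not exclude a pairing. With the replicate block the counts were 15, 3, 0, 1 and 0, and of the called pairs only Col23a1 in WT skin lost its call (adjusted p = 0.0575). Library totals as scaling shifted the median log2 fold change of all genes to -0.12 in the WT UVB contrast, and fibroblast marker scaling shifted it to 0.10 there, to -0.20 in KO UVB against WT UVB and to -0.11 in the interaction. Leaving out WT UVB library 2 by plan is the same fit as leaving it out in turn. Coding lengths from a protein table were not run, and coding lengths of the annotation were used in their place, a choice made after seeing the files. Depth limits Col2a1, Col9a1, Col9a2, Col10a1, Col19a1 and Col25a1 most, with 1 to 20 reads over a whole group in at least 1 group.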

Other observations

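Col9a2, Col6a4, Col9a1 and Col10a1 were below the level tested. Col10a1, the collagen of hypertrophic cartilage, had 0.0498, 0.0571, 0 and 0.0455 CPM in KO UVB libraries, 0, 0.127, 1.38 and 0.111 CPM in KO control, 0, 0, 0.0485 and 0 CPM in WT UVB and 0.0447, 0.558, 0.262 and 0.224 CPM in WT control libraries. Its highest value was in KO control library 3, and 40.4% of the reads on the gene lay on the opposite strand. Col6a4 had 0.299, 0.228, 1.06 and 0.228 CPM in KO UVB libraries, of which library 3 stood highest, and at most 0.508 CPM in any other group. Among the fibrillar genes, the spread between libraries was unequal across groups: Col1a1 was at 9619 ± 903 CPM in KO UVB, 17939 ± 2238 in KO control, 12821 ± 507 in WT UVB and 12766 ± 5575 CPM in WT control skin (SD, n = 4 each), so that the WT control SD was the largest of the 4.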
